A study of Mus musculus with 7 samples.

Results

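Spermatids carry protein kinases and phosphatases of which several are made mainly in testis, and 10 of their genes were followed in RNA of total testis from mice with and without *Rlim*, an X-linked gene for an E3 ubiquitin ligase. The genes were chosen by name, with earlier results of these data known. They are the testis-specific serine kinase genes *Tssk1*, *Tssk2*, *Tssk3*, *Tssk4*, *Tssk5* and *Tssk6*, the kinase substrate gene *Tsks*, the protein phosphatase 1 gene *Ppp1cc*, and the calcineurin genes *Ppp3cc* and *Ppp3r2*. All 10 were among the 19719 genes of the deposited table, and all 10 passed the filter on low values. The libraries came from C57BL/6 males at 8 weeks of age. In 3 of them the males carried the floxed *Rlim* allele (fl/Y, labelled WT), and in 4 the allele had been deleted by a Sox2-Cre transgene (cKO/Y Sox2-Cre, labelled KO), which acts in the early embryo and removes the gene from both soma and germline. Cre is named only for the second group, so the deletion and the transgene cannot be told apart. The study describes biological replicates and male littermates, while the labels number the libraries as repeats without naming animals or litters. The p-values therefore measure the spread between these libraries. The labels also give 2 batches, without saying what was done apart in them. Batch 1 held 1 fl/Y library (replicate 3) and 2 cKO/Y Sox2-Cre libraries (replicates 3 and 4), and batch 2 held 2 of each (replicates 1 and 2).

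As spermatids elongate they stop transcribing their DNA, so much of their late regulation runs through the phosphorylation of proteins made beforehand. TSSK kinases act in this period. TSSK1 and TSSK2 bind and phosphorylate TSKS, and male mice that lack both kinases are infertile. On the opposing side, a splice form of PP1 gamma is the main PP1 catalytic subunit of sperm and holds immature sperm immotile, while sperm calcineurin, built from the catalytic subunit PPP3CC and the regulatory subunit PPP3R2, makes the midpiece flexible. In RNA of a whole testis, fewer cells of a type and less RNA per cell cannot be told apart.

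*Tssk1* and *Tssk2* lie side by side on the + strand of chromosome 16 of GRCm38, at chr16:17894223-17897922 and chr16:17898637-17900023, and each is a single exon. Their coding sequences were identical at 81.9% of 1045 aligned bases, while the other 14 pairs among the 6 kinase genes were identical at 61.4% to 67.0%. The reads were 35 bases long in pairs, and 3 stretches of the coding sequences were long enough for such a read to match both genes. The 2 longest are shown because reads inside them could not be assigned to one gene from their own letters. The first covers 113 bases, at chr16:17894723-17894835 in *Tssk1* and chr16:17899105-17899217 in *Tssk2*, and its capitals mark the codons of the catalytic loop motif and of the motif that starts the activation segment of protein kinases. The second covers 110 bases, at chr16:17894899-17895008 and chr16:17899281-17899390. Both are given on the + strand, from the GENCODE M21 transcripts.
Tssk1 and Tssk2, catalytic loop to activation segment: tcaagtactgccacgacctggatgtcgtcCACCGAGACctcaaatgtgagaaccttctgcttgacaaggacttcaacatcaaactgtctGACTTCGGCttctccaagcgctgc
Tssk1 and Tssk2, second shared stretch: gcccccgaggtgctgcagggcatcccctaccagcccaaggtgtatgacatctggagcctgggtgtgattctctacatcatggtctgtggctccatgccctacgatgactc
In all, 158 words of 35 bases were shared by the pair, which is 4.31% of those in *Tssk1* and 11.7% of those in *Tssk2*, so most of each gene could be counted apart from its neighbour.

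The promoters of the pair also shared letters. The 80 bases before the RefSeq start sites (GRCm38.p6, + strand) are shown with words of 8 or more bases that the pair shared on this strand in capitals. These words came in the same order.
Tssk1, chr16:17894123-17894202: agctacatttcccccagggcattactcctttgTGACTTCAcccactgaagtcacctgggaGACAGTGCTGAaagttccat
Tssk2, chr16:17898557-17898636: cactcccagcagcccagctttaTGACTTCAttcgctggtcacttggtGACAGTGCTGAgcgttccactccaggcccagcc
The word TGACTTCA began 48 bases before the start of *Tssk1* and 58 bases before that of *Tssk2*, and 429 of 32851 RefSeq promoter windows of 250 bases (1.31%) hold it on either strand. The bases of *Tssk1* also hold it on the - strand, as tgaagtca in small letters. The longer word GACAGTGCTGA began 20 and 33 bases before the starts, and 6 windows (0.0183%) hold it, those of the pair among them. Both words were picked from these sequences after they were read, so their rarity tests nothing. Of the 10 genes, 8 matched a RefSeq promoter (*Tssk5* and *Ppp3cc* did not). The cyclic AMP response element TGACGTCA, known for its part in spermatid transcription through the factor CREM, was in none of these 8 windows on either strand, against 1.55% of all windows. Its shorter core TGACG, which the full element contains, was in 1 of the 8 (*Tssk6*), against 17.8% of all windows. These are matches of letters in the 250 bases before each start, and no more is drawn from them.

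The other members lie apart in the genome. *Tssk3* is at chr4:129489014-129491022 on the - strand in 2 exons, *Tssk4* at chr14:55650182-55652539 on the + strand, *Tssk5* at chr15:76371958-76374938 on the - strand, and *Tssk6* at chr8:69902184-69903518 on the + strand in 1 exon. *Tsks* is at chr7:44943204-44958035 on the + strand in 11 exon blocks. Of the phosphatase genes, *Ppp1cc* is at chr5:122158278-122175273 on the + strand, *Ppp3cc* at chr14:70217898-70289449 on the - strand, and *Ppp3r2* at chr4:49678747-49682024 on the - strand, inside an intron of *Grin3a* with no shared exon bases.

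*Rlim* RNA was at 99.5, 70.7 and 61.5 CPM (read counts that the authors set to a common library size) in the fl/Y libraries. In the cKO/Y Sox2-Cre libraries it was at 32.6, 35.7, 21.7 and 20.7 CPM, so that the genotypes did not overlap. The log2 fold change was -1.38 (standard error 0.16, adjusted p = 0.0087, limma with the batch as a covariate), and -1.52 was found in batch 1 and -1.29 in batch 2. The call rested on fl/Y replicates 1 and 3, since the adjusted p was 0.154 when the former was left out (-1.28) and 0.634 when the latter was (-1.29). *Rlim* was the only one of 19400 genes tested that was called (0.00515%). Between 2822168 and 8633399 reads per library fell in listed genes, and a gene without reads could be at up to 0.301 to 0.945 CPM (3 reads, counting error only). Reads from mitochondrial genes made up 5.88% to 9.31% of the batch 1 libraries and 12.7% to 21.4% of the batch 2 libraries. Each of the 10 genes was covered by 26 to 3720 reads in a library.

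None of the 10 genes was called higher or lower in cKO/Y Sox2-Cre testes, against 0.00515% of all genes tested. At an unadjusted p under 0.05 limma again called none of the 10, against 2.58% of all genes, and edgeR and DESeq2 on the recovered reads called none either, adjusted or unadjusted. The adjusted p from limma was 1.00 for each gene. For all 10 the libraries of the genotypes overlapped, against 2.92% of all genes tested for which they did not. The values of each gene follow, in CPM, fl/Y replicates 1 to 3 first and then cKO/Y Sox2-Cre replicates 1 to 4.

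**Figure D1:**
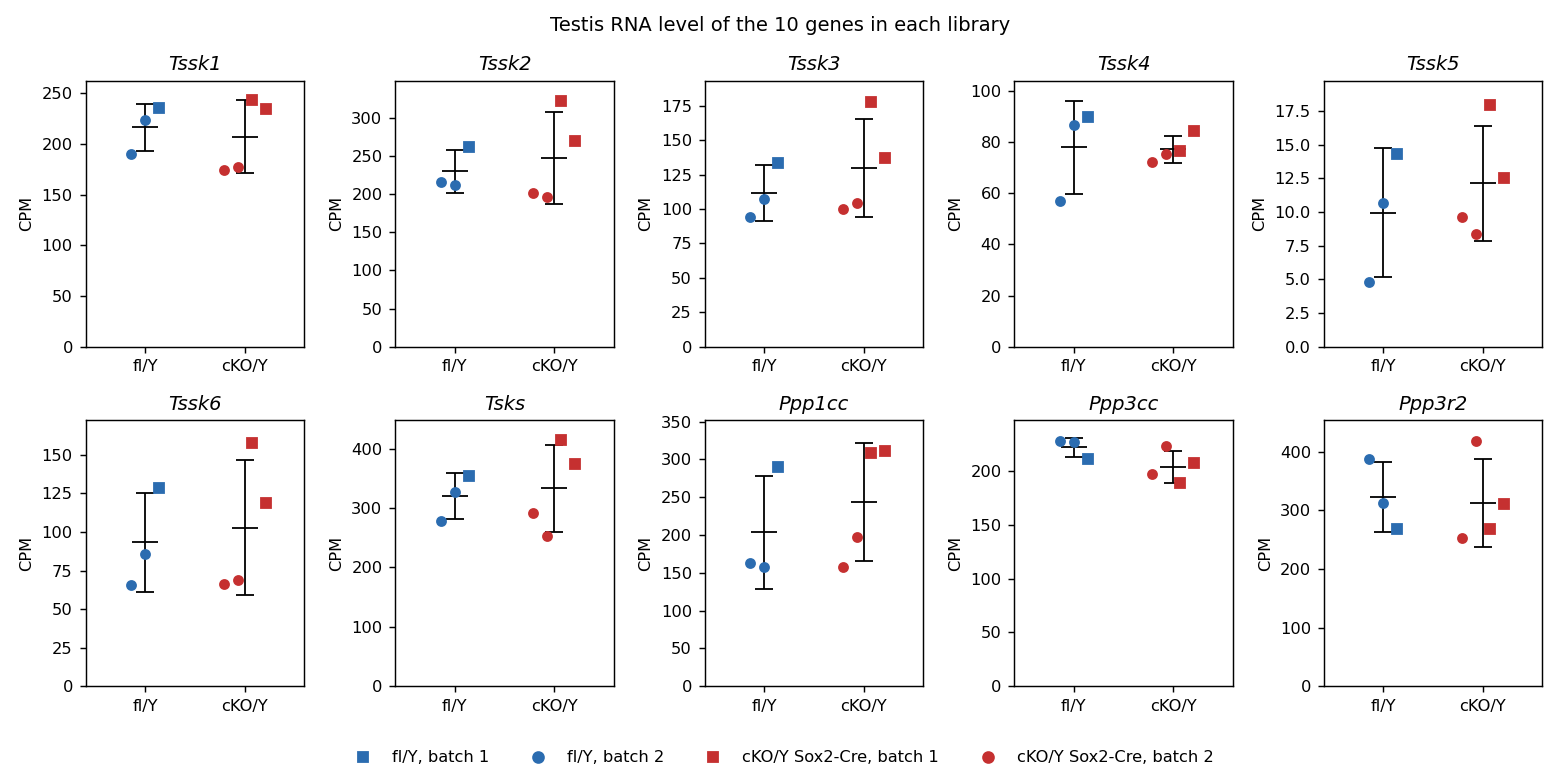
RNA level in CPM of each of the 10 genes (y axis, from 0) in the fl/Y (blue, n = 3) and cKO/Y Sox2-Cre (red, n = 4) libraries, with batch 1 as squares, batch 2 as circles, and black bars for the mean and SD of each genotype. The colours overlap in every panel, while the squares lie above the circles in 7 panels.

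Of the substrate-binding pair, *Tssk1* was at 190.2, 223 and 235 CPM in fl/Y and in cKO/Y Sox2-Cre testes at 174, 178, 243 and 234 CPM. *Tssk2* was at 216, 212 and 262 CPM in the former and at 201, 196, 322 and 269.7 CPM in the latter. In both genes the batch 1 libraries of either genotype were the highest. The log2 difference between the genotypes was -0.13 for *Tssk1* (95% interval -0.42 to 0.16) and 0.0039 for *Tssk2* (-0.29 to 0.30).

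*Tssk3*, which the kinase PDK1 can activate, was at 94.1, 107 and 134 CPM in fl/Y and in cKO/Y Sox2-Cre testes at 100.2, 104, 178 and 137 CPM. *Tssk4*, which phosphorylates the outer dense fibre protein ODF2 of the sperm tail, was at 57.1, 86.6 and 89.9 CPM and at 72.3, 75.1, 76.5 and 84.4 CPM. The 4 cKO/Y Sox2-Cre values of *Tssk4* all lay within the range of the 3 fl/Y values. Log2 differences were 0.11 for *Tssk3* (-0.21 to 0.42) and -0.024 for *Tssk4* (-0.37 to 0.32).

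*Tssk5* was the lowest of the 10, at 4.83, 10.7 and 14.3 CPM in fl/Y and in cKO/Y Sox2-Cre testes at 9.62, 8.37, 18.0 and 12.5 CPM. Its lowest value rested on 26 reads, and its interval was the widest, at a log2 difference of 0.20 (-0.35 to 0.76). *Tssk6*, which is needed for the replacement of histones and for male fertility, was at 65.4, 85.6 and 129 CPM in fl/Y and in cKO/Y Sox2-Cre testes at 66.4, 68.6, 158 and 119 CPM. Between the genotypes it differed by -0.054 on the log2 scale (-0.39 to 0.28). The batch 1 libraries of *Tssk6* reached 119 to 158 CPM and those of batch 2 only 65.4 to 85.6 CPM. Of the exon bases of *Tssk6*, 28.1% overlap exons of *Ndufa13* on the other strand, and the sources used here do not say whether counting used the strand. *Ndufa13* itself was at 33.2 to 66.1 CPM.

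*Tsks*, which encodes the substrate and scaffold of TSSK1 and TSSK2, was at 278, 326 and 355 CPM in fl/Y and in cKO/Y Sox2-Cre testes at 291, 253, 414 and 373 CPM. The fl/Y mean was 319.6 ± 38.8 CPM (SD, n = 3) and the cKO/Y Sox2-Cre mean 333 ± 73.9 CPM (SD, n = 4). The genotypes overlapped widely, with a log2 difference of -0.031 (-0.34 to 0.28).

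*Ppp1cc* encodes PP1 gamma, and the table gives 1 value for all its splice forms. It was at 163, 158 and 289.9 CPM in fl/Y and in cKO/Y Sox2-Cre testes at 157, 197, 309 and 311 CPM. Within each genotype the batch 1 libraries stood well above those of batch 2. The mean of the fl/Y libraries was 204 ± 74.8 CPM (SD, n = 3) and that of the cKO/Y Sox2-Cre libraries 244 ± 78.5 CPM (SD, n = 4). With the batch in the fit, the log2 difference was 0.12 (-0.18 to 0.41). Of the words of 35 bases in its transcripts, 41.4% also occur elsewhere, 1413 of them in *Ppp1ccb*, a near copy that was not analysed here, and others in pseudogenes. Its level is uncertain to that extent.

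The catalytic calcineurin gene *Ppp3cc* was at 228, 227 and 212 CPM in fl/Y and in cKO/Y Sox2-Cre testes at 197, 223, 189 and 208 CPM. As a ratio of the highest to the lowest library it varied least of the 10, by 1.21-fold (189 to 228 CPM), against 1.39-fold to 3.71-fold for the others, and its log2 difference was -0.11 (-0.39 to 0.18). The regulatory gene *Ppp3r2* was at 387, 313 and 268 CPM in fl/Y and in cKO/Y Sox2-Cre testes at 253, 419, 268 and 310.3 CPM. Its highest and its lowest value were both from cKO/Y Sox2-Cre libraries of batch 2. The log2 difference was -0.017 (-0.39 to 0.36).

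Over the 10 genes the log2 difference between the genotypes had a median of -0.020, against -0.0055 for all genes tested, with 4 genes above 0 and 6 below. Its size had a median of 0.080, against 0.135 for all genes. The latter include genes just above 1 CPM, so these medians are not matched for level. Unadjusted p-values ran from 0.365 for *Tssk1* to 0.978 for *Tssk2* (limma). All 10 intervals lay inside a 2-fold change, the outermost bounds being 0.747-fold for *Tssk1* and 1.69-fold for *Tssk5*. Differences inside these intervals could not be resolved with 7 libraries. Between the batches, 4 of the 10 genes had a difference of the same sign (*Tssk3*, *Tssk5*, *Ppp1cc* and *Ppp3cc*) and 6 of opposite sign. *Tsks*, for example, was at 0.15 within batch 1 and -0.15 within batch 2 on the log2 scale, and *Tssk2* at 0.17 and -0.11.

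**Figure D2:**
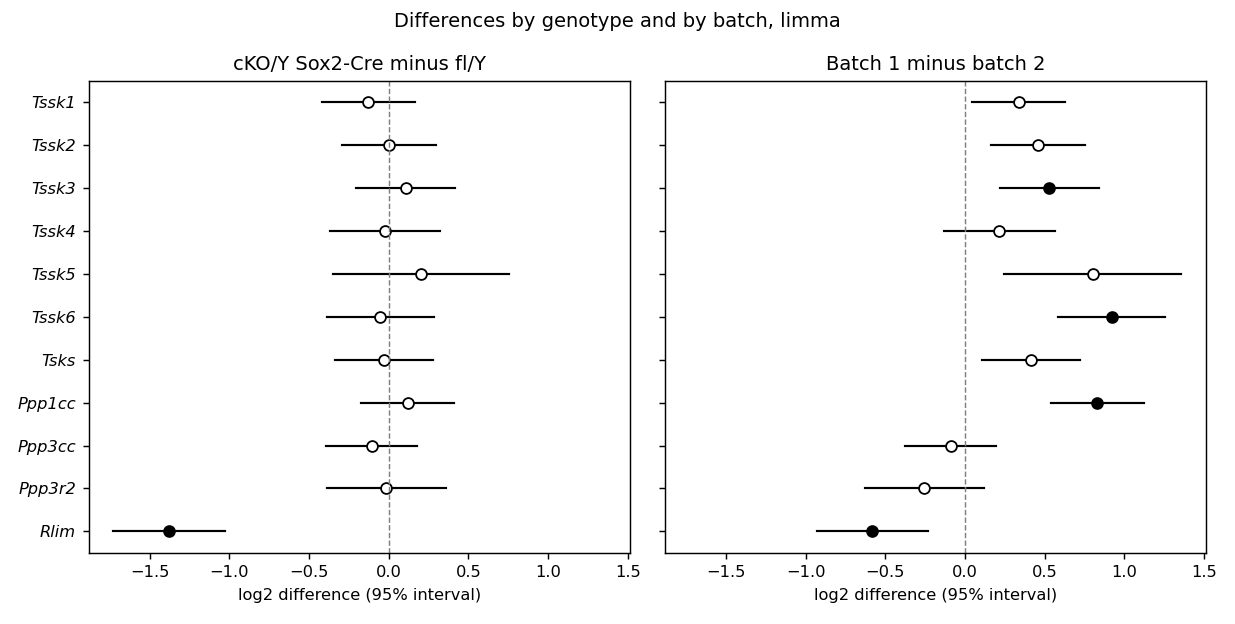
Log2 differences (x axis) with 95% intervals for the 10 genes and *Rlim*, as cKO/Y Sox2-Cre minus fl/Y on the left and as batch 1 minus batch 2 on the right, from the same limma fit over 7 libraries, with filled points where the adjusted p was under 0.05. On the left only *Rlim* is filled, at -1.38, and on the right *Tssk3*, *Tssk6*, *Ppp1cc* and *Rlim* are filled.

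The batch of the labels separated these genes where the genotype did not, a comparison that was added after the data were seen. In 7 of the 10 genes (*Tssk1*, *Tssk2*, *Tssk3*, *Tssk5*, *Tssk6*, *Tsks* and *Ppp1cc*) every batch 1 library was above every batch 2 library, against 23.6% of all genes tested whose batches did not overlap in either direction. At an adjusted p under 0.05, 3 of the 10 were higher in batch 1 and 0 were lower, against 3.6% and 3.46% of all genes (7.06% in either direction). *Tssk6* was 1.89-fold higher in batch 1 (log2 difference 0.92, adjusted p = 0.0059, limma), as the means were 135 ± 20.3 CPM (SD, n = 3) in batch 1 and 71.5 ± 9.5 CPM (SD, n = 4) in batch 2. By the same limma fit *Ppp1cc* was 1.78-fold higher (0.83, adjusted p = 0.0048), with means of 303 ± 11.7 CPM in batch 1 and 169 ± 19.1 CPM in batch 2. For *Tssk3* the fold was 1.44 (0.53, adjusted p = 0.043). *Tssk5* differed by 0.80 on the log2 scale, *Tssk2* by 0.46, *Tsks* by 0.41, *Tssk1* by 0.34 and *Tssk4* by 0.22, none of which passed the threshold (adjusted p = 0.0595 to 0.441). The calcineurin genes lay on the other side of 0, *Ppp3cc* at -0.090 and *Ppp3r2* at -0.26, and were not called either (adjusted p = 0.715 and 0.393).

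The median batch difference of the 10 genes was 0.44 on the log2 scale, against 0.018 for all genes tested, where both directions offset each other. Its size, without the sign, had a median of 0.44, against 0.305 for all genes. These medians are not matched for level either. In 15 alternatives of the processing, *Tssk6* and *Ppp1cc* were above 0 in all 15 and called in 13 each, while *Tssk3* was called in 8. The 2 alternatives without a call for *Tssk6* and *Ppp1cc* left out fl/Y replicate 3, the only fl/Y library of batch 1, or the variance trend, and both gave 0 called genes among the 10. Of all genes, only 0.376% and 0.629% were called by batch in them, against 7.06% in the main fit. Leaving out cKO/Y Sox2-Cre replicate 1 gave 5 higher genes and 1 lower (*Ppp3r2*), where 15.6% of all genes were called. Leaving out fl/Y replicate 2 gave 4 higher (7.97% of all genes called), and leaving out any other library gave 2 higher (0.897% to 3.42%). With 1 library left out, the counts were larger where the share of all genes was larger.

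Markers of some germ cell stages moved with the batch as well. Summed over 10 markers of elongating spermatids (such as the protamine genes), the libraries of batch 1 reached 11167 to 12884 CPM and those of batch 2 only 8016 to 8849 CPM. Of the 10 markers, 4 were called higher in batch 1, against 3.6% of all genes. Summed over 9 markers of meiotic spermatocytes, the libraries were at 895 to 1230 CPM in batch 1 and at 1645 to 2173 CPM in batch 2. Of these 9, 4 were called lower in batch 1, against 3.46% of all genes. The 9 markers of round spermatids overlapped between the batches, at 2285 to 2604 CPM and 2222 to 2859 CPM, with 0 called. The 8 markers of spermatogonia did too, at 76.6 to 91.3 CPM and 58.6 to 102 CPM. Neither list had a called gene, against 7.06% of all genes. Of the somatic lists, only the 5 endothelial markers did not overlap, at 44.8 to 53.9 CPM against 31.1 to 42.5 CPM. Of these 5, 1 was called higher in batch 1, as was 1 of 7 Leydig markers. Among 5 myoid markers 1 was called lower. Whether cell composition, the mitochondrial share of the reads or another step apart in the batches had a part in the levels of the kinase and phosphatase genes was not tested. By genotype no marker was called, against 0.00515% of all genes tested, and the epididymis list had no tested gene. The elongating spermatid markers were at 8374 to 11580 CPM in fl/Y and 8016 to 12884 CPM in cKO/Y Sox2-Cre testes. As for the labelled tissue, every germ cell, Sertoli and Leydig marker was a listed gene, and 0 of 5 epididymis markers were.

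**Figure D3:**
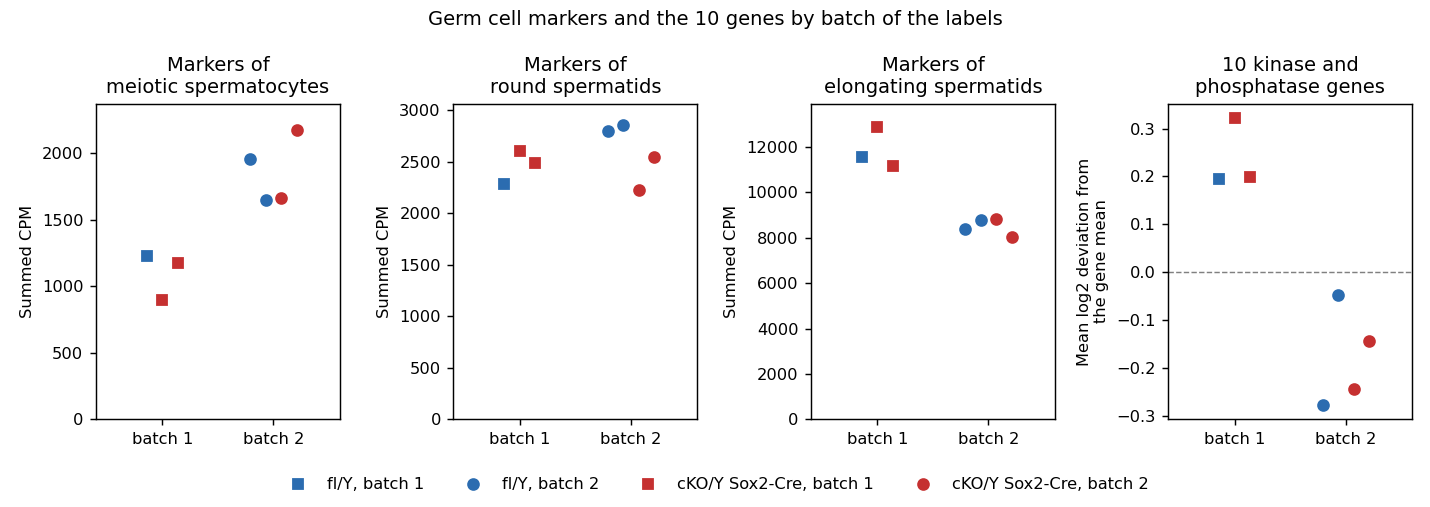
Summed CPM of markers of meiotic spermatocytes (9 genes), round spermatids (9) and elongating spermatids (10), and the mean log2 deviation of the 10 kinase and phosphatase genes from their own means, in each library by batch, with fl/Y in blue and cKO/Y Sox2-Cre in red. Batch 1 lies below batch 2 for meiotic markers and above it for elongating spermatid markers and for the 10 genes, at 0.19 to 0.32 against -0.28 to -0.047.

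The part that a gene held among its related genes was compared as a share of CPM per kb of exon within a library. Such a share does not depend on how the library was scaled. *Ppp3r2* made up 95.4%, 95.9% and 96.3% of the calcineurin B genes (with *Ppp3r1*) in fl/Y and 95.9%, 95.9%, 97.3% and 96.7% in cKO/Y Sox2-Cre testes. *Ppp3cc* made up 77.4%, 81.1% and 84.6% of the calcineurin A genes (with *Ppp3ca* and *Ppp3cb*) in fl/Y and 79.6%, 73.1%, 86.3% and 84.1% in cKO/Y Sox2-Cre testes. Per length, *Ppp3r2* and *Ppp3cc* were the larger part of the genes for their subunit in every library. As a share of CPM without length, *Ppp3r2* still made up 95.1% to 97.1%. *Ppp3cc* then had means of 57.1% in fl/Y and 57.0% in cKO/Y Sox2-Cre testes and was at 45.4% in cKO/Y Sox2-Cre replicate 2. The size of its share thus depends on the lengths. By CPM *Ppp3cc* was still the highest calcineurin A gene in every library. In cKO/Y Sox2-Cre replicate 2 it was at 223 CPM, against 216 for *Ppp3ca* and 52.0 for *Ppp3cb*. The difference between the genotypes was 0.580 percentage points for *Ppp3r2* (p = 0.286) and -0.284 for *Ppp3cc* (p = 0.971) by an exact permutation test, two-sided, which with 3 and 4 libraries cannot go below 0.0286 and takes no account of the batch. Within batch 1 and batch 2 the differences were 0.675 and 0.256 for *Ppp3r2* and 0.565 and -2.92 for *Ppp3cc*. With 1 library left out they ran from 0.296 (without cKO/Y Sox2-Cre replicate 3) to 0.810 (without fl/Y replicate 3) for *Ppp3r2*, and from -2.12 (without cKO/Y Sox2-Cre replicate 3) to 2.28 (without cKO/Y Sox2-Cre replicate 2) for *Ppp3cc*.

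*Ppp1cc* made up 72.6%, 73.8% and 89.2% of the PP1 catalytic genes (with *Ppp1ca* and *Ppp1cb*) in fl/Y and 71.6%, 75.9%, 89.5% and 90.5% in cKO/Y Sox2-Cre testes. As a share of CPM without length it was lower, at 53.5% to 85.2%, with means of 65.4% in fl/Y and 70.9% in cKO/Y Sox2-Cre testes. The words that *Ppp1cc* shares with other genes make either share uncertain. Per length the means were 78.5% ± 9.26 (SD, n = 3) and 81.9% ± 9.56 (SD, n = 4), a difference of 3.34 percentage points (exact permutation test, p = 0.657). Within batch 1 it was 0.794 and within batch 2 it was 0.549, and with 1 library left out it ran from 0.360 (without fl/Y replicate 1) to 8.67 (without fl/Y replicate 3). *Tssk1* made up 24.8%, 28.3% and 25.2% of the *Tssk1* and *Tssk2* pair in fl/Y and 24.5%, 25.3%, 22.1% and 24.6% after deletion of *Rlim*, a difference of -1.99 percentage points (exact permutation test, p = 0.171). That difference was -1.87 in batch 1 and -1.65 in batch 2, and with 1 library left out it ran from -2.64 (without fl/Y replicate 1) to -0.875 (without fl/Y replicate 2). Adjusted over the 4 shares by Benjamini-Hochberg, the exact p-values were 0.571 to 0.971.

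Between the batches, 3 of the shares did not overlap. *Ppp1cc* made up 89.2% to 90.5% of the PP1 catalytic genes in batch 1 and 71.6% to 75.9% in batch 2, *Ppp3cc* 84.1% to 86.3% and 73.1% to 81.1% of calcineurin A, and *Ppp3r2* 96.3% to 97.3% and 95.4% to 95.9% of calcineurin B. The related genes in these 3 shares lay lower in batch 1. *Ppp1cb* differed by -1.17 on the log2 scale (adjusted p = 0.0066), *Ppp3ca* by -0.81 (0.021) and *Ppp3cb* by -0.71 (0.034), all 3 called by limma, while *Ppp3r1* at -0.62 (0.114) and *Ppp1ca* at -0.44 (0.222) were not. The share of *Tssk1* overlapped between the batches, at 22.1% to 25.2% and 24.5% to 28.3%.

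**Figure D4:**
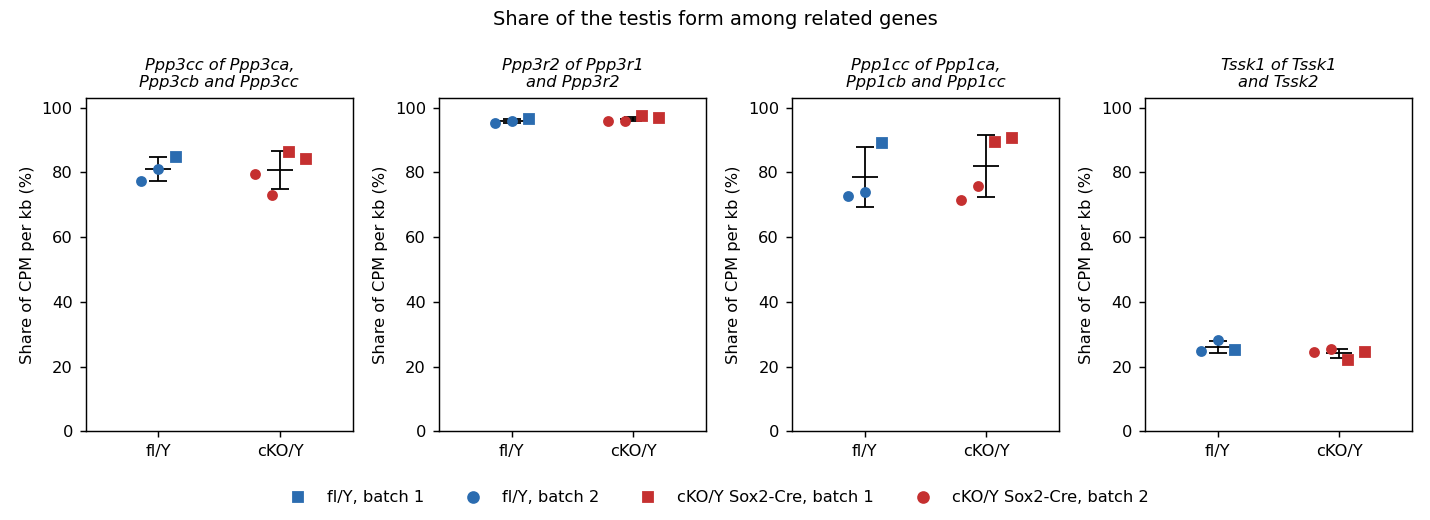
Share of CPM per kb of exon, in percent (y axis, 0 to 100), that *Ppp3cc*, *Ppp3r2*, *Ppp1cc* and *Tssk1* each held among their related genes in each library. Libraries are shown by genotype (fl/Y blue, n = 3, cKO/Y Sox2-Cre red, n = 4) and batch (squares 1, circles 2), with the mean and SD of each genotype. *Ppp3r2* stayed between 95.4% and 97.3%, while the squares of *Ppp1cc* lie at 89.2% to 90.5% and its circles at 71.6% to 75.9%.

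Levels per length put the 10 genes in an order. In fl/Y testes *Tssk2* (166 CPM per kb) and *Tsks* (165) were highest, followed by *Ppp3r2* (107), *Tssk3* (87.2), *Ppp3cc* (74.4), *Tssk6* (69.8), *Ppp1cc* (59.5), *Tssk1* (58.4), *Tssk4* (45.4) and *Tssk5* (4.8). Only 2 neighbours in this order had library ranges that did not overlap, *Tsks* above *Ppp3r2* and *Tssk4* above *Tssk5*. *Tssk5* was at most 6.91 CPM per kb in any fl/Y library, and *Tssk4* at least 33.2. The place of *Tssk1* depends on the annotation, since GENCODE M21 gives it an exon of 3700 bases and RefSeq a much shorter one. With the RefSeq length, *Tssk1* was 47.4% of the pair in fl/Y and 44.7% in cKO/Y Sox2-Cre testes, in place of 26.1% and 24.1%.

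Around these genes, 5 lists of partners, regulators and other enzymes held 99 genes, of which 94 were listed and 93 tested. None was called by genotype with limma, edgeR or DESeq2, and none had an unadjusted p under 0.05 with limma, where 2.58% of all genes did. Among the partners and regulators of TSSK kinases (10 of 10 tested), the median log2 difference was -0.046, and 0.020 in batch 1 alone. The 3 with the smallest p were *Ube2b*, for a ubiquitin-conjugating enzyme of spermatids, at -0.15 (-0.50 to 0.19), *Pdpk1*, for the kinase PDK1, at -0.079 (-0.36 to 0.21), and *Hspa8*, for a chaperone, at 0.076 (-0.25 to 0.40).

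Among the PP1 paralogs and regulators (15 of 16 tested) the median was 0.0076, and the smallest p-values were those of *Gsk3a* at 0.38 (-0.053 to 0.82), *Ppp1r11* at -0.21 (-0.50 to 0.076) and *Gsk3b* at -0.15 (-0.45 to 0.14). *Gsk3a* and *Gsk3b* encode glycogen synthase kinases, of which GSK3A is needed for sperm motility, and *Ppp1r11* an inhibitor of PP1. *Gsk3a* was at 16.7, 20.2 and 16.4 CPM in fl/Y and in cKO/Y Sox2-Cre testes at 31.0, 17.5, 23.6 and 21.9 CPM, so that the genotypes overlapped. Among calcineurin paralogs and regulators (16 of 18 tested), with a median of 0.0040, *Nfatc2* was at 0.41 (-0.22 to 1.04), *Nfatc1* at -0.27 (-0.88 to 0.34) and *Dyrk1a* at 0.15 (-0.20 to 0.50). The NFAT genes encode transcription factors that calcineurin activates, and both were under 6 CPM in every library.

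Other kinases and anchoring proteins of germ cells (28 of 30 tested) had a median of -0.091, with 10 genes above 0 and 18 below. That median was 0.017 in batch 2 alone and also when fl/Y replicate 3 was left out, and -0.012 without cKO/Y Sox2-Cre replicate 1. *Pim1*, for a kinase, was at 0.32 (-0.13 to 0.77), *Fes*, for a tyrosine kinase, at -0.65 (-1.66 to 0.37), and *Akap3*, for an anchor of protein kinase A in the fibrous sheath, at -0.17 (-0.48 to 0.15). *Fes* rested on 0 to 14 reads in a library. Other phosphatases (24 of 25 tested) had a median of 0.0020, and *Dusp21* was at -0.39 (-0.87 to 0.085), *Acp1* at -0.23 (-0.62 to 0.16) and *Ppp5c* at 0.23 (-0.25 to 0.71). By batch, 7 of the 93 genes were called higher in batch 1 and 7 lower, against 3.6% and 3.46% of all genes.

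The genes whose course over the 7 libraries was most like the mean of the 10, among 11986 others with a mean above 5 CPM, were *Fam78a*, *Stk10* and *Mepce*, with root mean square distances of 0.039, 0.050 and 0.051 on the log2 scale. *Stk10* encodes a serine/threonine kinase of white blood cells and *Mepce* an enzyme that caps a small nuclear RNA. The mean of the 10 was itself highest in cKO/Y Sox2-Cre replicate 3, at 0.32 above its average, and lowest in fl/Y replicate 1, at 0.28 below it.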

How the data were processed

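RNA of total testis was measured in 7 libraries (3 fl/Y, 4 cKO/Y Sox2-Cre), grouped by the genotype of the labels. The submitters' processing notes name HISAT2 2.1.0, featureCounts and edgeR on GRCm38, whereas the methods name TopHat and HTSeq, so which tools made the table is not settled. The deposited signal values are CPM that the authors computed. All values were whole multiples of the worth of 1 read (tolerance 0.01 reads), and each library's scaling equalled its TMM factor. All 7 columns were used. For edgeR and DESeq2, reads were recovered from these steps.

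Genes above 1 CPM in at least 3 libraries (19400) were fitted on log2(CPM + 0.5) by limma 3.58.1 (R 4.3.3) with a variance trend and the batch of the labels, two-sided, adjusted by Benjamini-Hochberg over all of them (threshold 0.05). Fold changes are on this scale and understate those of low genes. The fit was tested on simulated data. Lists are given by counts and medians, without a test. Exon lengths and shared words of 35 bases came from GENCODE M21, and promoters from RefSeq. Alternatives were edgeR 4.0.16, DESeq2 1.42.0, pseudocounts of 0.1 and 1 CPM, another filter or none, other scalings, a fit without the variance trend or the batch, a replicate block, the batches one by one, and leaving out single libraries. The batch comparison, its alternatives, a scaling without mitochondrial genes and the RefSeq length of *Tssk1* were added after the data were seen. The words shared by the promoters of *Tssk1* and *Tssk2* were searched after the sequences were read. The members and lists were chosen with earlier results of these data known. Named in the text were the 10 genes, *Rlim*, the paralogs in the shares, from every list the 3 genes of smallest p, and the 3 genes most like the mean of the 10; overlapping genes were named after their positions were seen. Replicate numbers were not taken as pairing libraries across genotypes. For same-numbered libraries the correlations of their deviations from the group means (0.101, 0.066 and 0.392) were not all above 0.1. Same-numbered libraries share a batch, so these values cannot decide whether the numbers are pairs. With the batch also removed they were -0.295 for replicates 1 and -0.264 for replicates 2, and replicate 3 was not computed.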

Additional observations from a re-analysis of the deposited data

How the results depend on the processing

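By genotype, 0 of the 10 genes and 0 of the 93 listed partners and other enzymes were called under any of 21 alternatives, and the median log2 difference of the 10 genes ran from -0.10 to 0.093. The call of *Rlim* was lost with no batch term (-1.47, 0 genes lower), a replicate block in place of the batch (-1.35, 0 lower), no variance trend (-1.38, 0 lower) and batch 2 alone (-1.29, 0 lower), and its adjusted p over the alternatives was 2.61e-08 to 0.921. Batch 1 alone gave 18 genes higher and 11 lower, with 1 fl/Y library that was assumed to vary like the others. Leaving out 1 library gave -1.52 to -1.28 for *Rlim*, 0 to 1 genes higher and 0 to 3 lower. The replicate block changed no other call. The causes were not tested.

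Differences of uncalled genes changed sign. With no batch term *Tssk4* was at 0.012, *Tssk6* at 0.099 and *Tsks* at 0.039. In batch 1 alone *Tssk1* was at 0.020, *Tssk6* at 0.089, *Tsks* at 0.15 and *Ppp3r2* at 0.10, and in batch 2 alone *Tssk2* was at -0.11 and *Tssk4* at 0.067. *Tssk2* was at -0.0027 when scaled to the total of the listed genes and at -0.058 without mitochondrial genes, and *Ppp3r2* at 0.0080 with edgeR and 0.014 with DESeq2. Leaving out 1 library gave -0.11 to 0.040 for *Tssk2*, -0.20 to 0.10 for *Tssk4*, -0.088 to 0.45 for *Tssk5*, -0.15 to 0.066 for *Tssk6*, -0.15 to 0.057 for *Tsks*, -0.18 to 0.18 for *Ppp3r2*, and -2.12 to 2.28 percentage points for the share of *Ppp3cc*.

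By batch, the count of the 10 genes higher in batch 1 was 6 when scaled to the total of the listed genes, a scaling that moved the median of all genes to 0.24 on the log2 scale, and 0 with no variance trend. Of all genes, 11.7% were called by batch with that scaling and 0.629% with no variance trend. With 1 library left out, the count of higher genes was 0 to 5 and that of lower genes 0 to 1, while 0.376% to 15.6% of all genes were called.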
